A study of Mus musculus with 12 samples.

Results

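Genes that carry iron into mitochondria and build iron-sulfur clusters there were followed in mouse colonoids, organoids grown from stem cells of the colonic epithelium. They were chosen by symbol as *Slc25a37*, *Slc25a28*, *Nfs1*, *Iscu*, *Isca1*, *Isca2* and *Glrx5*, 7 of 54532 genes in the table, and all 7 were among the 12740 genes tested. The series holds 12 libraries of poly-A RNA, and each of its 4 groups has 3. Control colonoids carried floxed *Hmox1* alleles (*Hmox1* fl/fl), and the others carried the floxed alleles with *Vil1*-Cre, a Cre recombinase under the villin promoter, which is active in the epithelium of villi and crypts of the small and large intestine. These second colonoids (*Hmox1*ΔIEC) are called labelled KO here. Each genotype received vehicle or hemin, the oxidized form of heme, at 200 µM for 24 hours, in order to compare epithelial responses to heme with and without heme oxygenase-1. The epithelium came from mice of 8 to 12 weeks of age. The number of animals behind each group was not given in the sources used here, so p-values measure the spread between these samples, which may be technical, and genotype cannot be told apart from the animals that each line came from.

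Iron enters the mitochondrial matrix through the mitoferrins, carriers of the SLC25 family in the inner membrane. Mitoferrin-1 (*Slc25a37*) is best known from developing red blood cells, and mitoferrin-2 (*Slc25a28*) from most other tissues. In the matrix, the cysteine desulfurase NFS1 releases sulfur from cysteine, the scaffold ISCU joins it with iron into a cluster, the glutaredoxin GLRX5 receives that cluster, and the paired proteins ISCA1 and ISCA2 take part in making and delivering the cubane clusters that respiratory chain and citric acid cycle enzymes need. Heme synthesis draws on the same imported iron.

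The mitoferrin genes are near relatives, and their fragments could in principle be confused. The coding sequences of Slc25a37-201 (1014 bases) and Slc25a28-201 (1092 bases) were identical at 72.4% of 1005 aligned bases. Their most similar stretch of 60 bases is shown because the results turn on telling these genes apart. It covers coding bases 601 to 660 of Slc25a37-201 and 682 to 741 of Slc25a28-201, with 53 of 60 bases identical and the 7 differing bases in capitals.
Slc25a37-201: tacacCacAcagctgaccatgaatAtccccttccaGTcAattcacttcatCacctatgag
Slc25a28-201: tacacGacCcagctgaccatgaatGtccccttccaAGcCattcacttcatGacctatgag
No run of identical bases between the coding sequences was longer than 15 bases. None of the 50-base windows of one mitoferrin gene's transcripts occurred in the other's. The coding sequences of Isca1-201 (387 bases) and Isca2-201 (462 bases) were less alike, with 60.9% identity over 379 aligned bases and no identical run above 8 bases.

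The genes lie at separate loci of mm10. *Slc25a37* (ENSMUSG00000034248) is at chr14:69241848-69285112 and *Slc25a28* (ENSMUSG00000040414) at chr19:43663822-43674881, both on the minus strand. *Nfs1* (ENSMUSG00000027618) is at chr2:156123639-156144186 on the minus strand, and *Iscu* (ENSMUSG00000025825) at chr5:113772748-113778288 on the plus strand. *Isca1* (ENSMUSG00000044792) is at chr13:59755409-59769810 on the minus strand. *Isca2* (ENSMUSG00000021241) and *Glrx5* (ENSMUSG00000021102) share chromosome 12, at chr12:84773251-84775088 and chr12:105032688-105042906, both on the plus strand. Transcripts of *Nfs1* shared 50-base windows with *Romo1* on the opposite strand. Those of *Isca1* and of *Iscu* shared windows with many genes on both strands, among them *Etohd2* on the opposite strand for *Isca1*. Whether fragments were counted by strand was not given in the sources used here, so part of the *Nfs1*, *Isca1* and *Iscu* values could belong to those genes. *Slc25a37* also shared 50-base windows with *Gm16867* on the same strand and with *Gm27175*, *Gm27223*, *Gm31748* and *Gm37847* on the opposite strand, and *Nfs1* with *Gm28036* on the same strand, so the same holds for part of the *Slc25a37* values. Shared 50-base windows made up 8.53% of *Nfs1*, 14.2% of *Isca1*, 12.1% of *Iscu* and 6.99% of *Slc25a37* transcript sequence, and none of *Slc25a28*, *Glrx5* or *Isca2*.

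The libraries held between 11648801 and 25101868 fragments on genes. A member gene had between 160 and 2255 fragments in a library, so counting alone was not what limited most values. All 6 epithelial markers (*Epcam*, *Cdh1*, *Vil1*, *Krt8*, *Krt18*, *Cdx2*) were present in every group, with a summed level of 4120 to 7250 FPKM (fragments per kilobase of gene, scaled to library size). The lowest sums, 4120 to 4160 FPKM, were in labelled KO colonoids with vehicle. Markers of leukocytes summed to at most 0.522 FPKM, of fibroblasts to at most 0.0707 FPKM and of endothelium to at most 0.192 FPKM. Replicate 3 of control with hemin stood somewhat apart, with a mean correlation of 0.961 to its group and the largest share of mitochondrial genome fragments (4.92%, against 2.29% to 3.74% in the other 11). The noncoding RNA *Gm23935* took 16.8%, 29% and 21% of the FPKM sum in replicate 1 of control with vehicle, replicate 1 of control with hemin and replicate 2 of labelled KO with hemin, against 1.18% to 2.81% elsewhere. Differences below are on the log2(FPKM + 1) scale from limma, and a gene passed at a Benjamini-Hochberg adjusted p under 0.05 over the 12740 genes.

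*Hmox1*, the targeted gene, was lower in labelled KO than in control colonoids with vehicle and higher with hemin. With vehicle its level was 7.62, 6.85 and 7.90 FPKM in control and 3.14, 2.11 and 2.31 FPKM in labelled KO colonoids. With hemin it was 503, 483 and 382 FPKM in control and 1280, 1390 and 1270 FPKM in labelled KO colonoids. The labelled KO libraries were lower with vehicle (log2 fold change −1.27, limma adjusted p = 1.2e-05) and higher with hemin (1.53, adjusted p = 3.3e-06). These are values of the whole gene, and the part of it that is floxed was not given in the sources used here. They can therefore not check the deletion. For the deletion the paper refers to RT-qPCR of *Hmox1* in sorted colonic epithelial cells of both genotypes, a separate measurement.

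*Slc25a37*, the mitoferrin-1 gene, was lower in labelled KO than in control colonoids, to about the same extent with vehicle and with hemin. Its level was 19.2, 21.9 and 20.5 FPKM in control with vehicle (mean 20.6 ± 1.35, SD, n = 3) and 20.8, 21.2 and 22.9 FPKM in control with hemin (21.6 ± 1.14). In labelled KO colonoids it was 10.5, 9.56 and 9.70 FPKM with vehicle (9.90 ± 0.481) and 11.5, 12.4 and 12 FPKM with hemin (12 ± 0.452). Every labelled KO library was below every control library. Labelled KO against control gave a ratio of mean FPKM of 0.482 with vehicle (log2 fold change −0.98, SE 0.065, limma adjusted p = 6.3e-07) and 0.552 with hemin (−0.81, SE 0.065, adjusted p = 3.6e-06). Both differences passed under each of the 22 alternative settings and left-out libraries, from −1.06 to −0.89 with vehicle and from −0.89 to −0.76 with hemin. Within labelled KO colonoids hemin raised *Slc25a37* by 0.25 (adjusted p = 0.0068), with no overlap between the 3 libraries of each treatment. In control the change with hemin was 0.07 (95% interval −0.07 to 0.22, adjusted p = 0.40), and the hemin effects of the genotypes were not told apart (interaction 0.18, 95% interval −0.03 to 0.38, adjusted p = 0.20). Rescaling FPKM to TPM, which lowers the median of all genes with hemin by up to 0.31, turned the rise in labelled KO colonoids to −0.07 (adjusted p = 0.80).

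*Slc25a28*, the mitoferrin-2 gene, was ordered the other way around. Its level was 11.8, 16.2 and 16.4 FPKM in control with vehicle (14.8 ± 2.62) and 15.1, 14.6 and 9.05 FPKM in control with hemin (12.9 ± 3.34). The labelled KO libraries had 16.8, 18.1 and 21.0 FPKM with vehicle (18.6 ± 2.18) and 23.4, 22.6 and 19.7 FPKM with hemin (21.9 ± 1.94). No labelled KO library fell to the level of a control library with the same treatment, but the spread within groups was wider than for *Slc25a37*. With hemin the labelled KO libraries were higher by 0.75 (SE 0.18, limma adjusted p = 0.0082), a ratio of mean FPKM of 1.7. The control library of 9.05 FPKM is replicate 3, which stood apart, and without it the difference was 0.53 (adjusted p = 0.011). With vehicle the difference of 0.32 did not pass (95% interval −0.08 to 0.72, adjusted p = 0.21). Hemin gave changes of −0.20 in control (adjusted p = 0.38) and 0.22 in labelled KO colonoids (adjusted p = 0.31), neither of which passed, and the interaction of 0.43 did not pass either (adjusted p = 0.27).

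**Figure D1:**
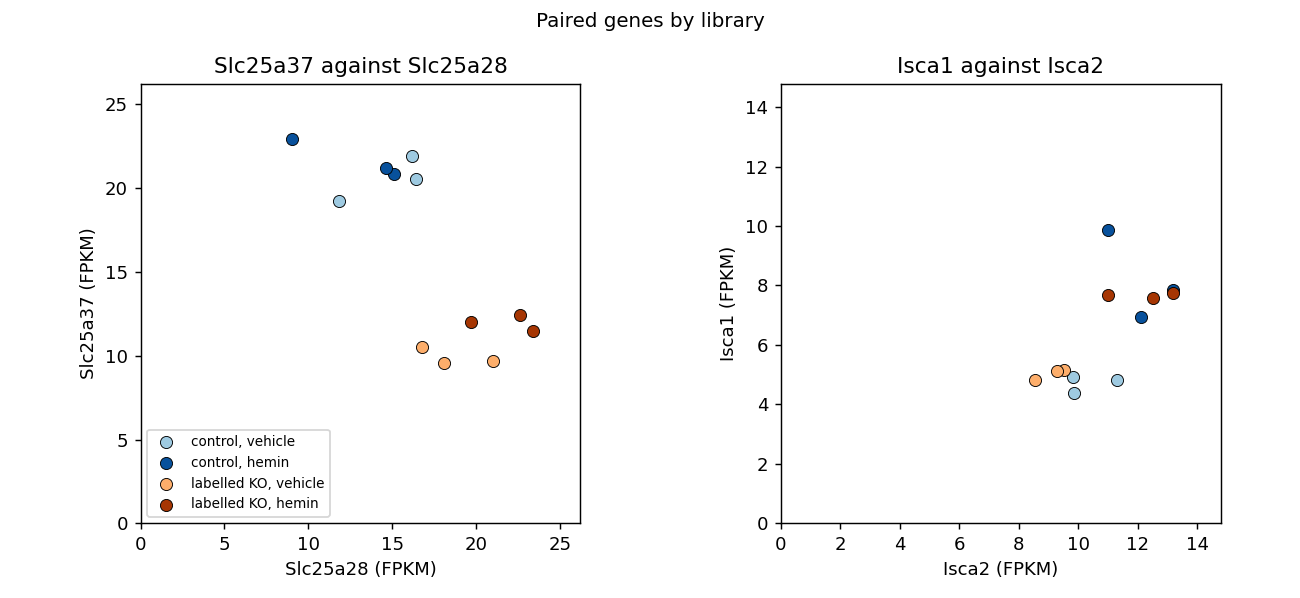
FPKM of *Slc25a37* against *Slc25a28* (left) and of *Isca1* against *Isca2* (right), 1 point per library, colored by group, with levels per length as in the table. The 6 control libraries lie apart from the 6 labelled KO libraries for the mitoferrin genes, and for *Isca1* the 6 hemin libraries, from 6.94 to 9.86 FPKM, lie above the 6 vehicle libraries.

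The balance of the mitoferrin transcripts separated the genotypes in every library. The ratio of *Slc25a37* to *Slc25a28* FPKM, in which any scaling of a library cancels, was 1.63, 1.35 and 1.25 in control with vehicle and 1.38, 1.45 and 2.53 in control with hemin. It was 0.623, 0.528 and 0.461 in labelled KO colonoids with vehicle and 0.492, 0.550 and 0.607 with hemin. The lowest control ratio of each treatment was thus above the highest labelled KO ratio. Which gene is the more abundant depends on the length used, since the table gives *Slc25a28* 1514 bases while its exons in GENCODE vM21 cover 3749 bases and its coding transcript 1535 bases. With the exon lengths the labelled KO ratios were 1.14 to 1.54 and with the coding transcript lengths 0.674 to 0.912, and the control ratios were 3.1 to 6.28 and 1.83 to 3.71. The fragments stayed the same throughout. Over which bases they were counted was not given, so an exchanged length may not match them. The ratio was looked at, and the lengths were exchanged, after the values of each gene were known, and nothing was tested on it. *Slc25a37* is known for its role in red cell precursors, and RNA of that lineage was near absent here. *Hbb-bs* had no fragment in any library, *Alas2* reached 0.198 FPKM, and the 6 erythroid markers together summed to 0.173 to 1.03 FPKM. In these bulk libraries, fewer cells of a type that expresses a gene and less of its RNA per cell cannot be told apart.

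*Nfs1*, the sulfur donor, differed between groups mainly in that control with vehicle was lowest. Its level was 10.3, 10.8 and 11.7 FPKM in control with vehicle (10.9 ± 0.711) and 14.0, 14.1 and 14.7 FPKM in control with hemin (14.3 ± 0.375). Labelled KO colonoids had 13.2, 13.3 and 12.6 FPKM with vehicle (13 ± 0.407) and 13.6, 13.1 and 14.1 FPKM with hemin (13.6 ± 0.479). All 3 control libraries with vehicle were below the other 9. Hemin raised *Nfs1* by 0.36 in control (SE 0.058, limma adjusted p = 0.0004), and the change in labelled KO colonoids was 0.06 (95% interval −0.07 to 0.19, adjusted p = 0.43). The difference between these responses passed (interaction −0.31, SE 0.083, adjusted p = 0.021). It did not pass without replicate 2 of control with vehicle (adjusted p = 0.052), without replicate 1 of labelled KO with vehicle (0.057) or without replicate 2 of that group (0.062), at values between −0.30 and −0.29. Rescaling to TPM ended all 3 *Nfs1* calls, with 0.19 for hemin in control (adjusted p = 0.46), 0.40 for genotype with vehicle (adjusted p = 0.17) and an interaction of −0.47 (adjusted p = 0.37). With vehicle, labelled KO colonoids were higher by 0.24 (adjusted p = 0.0086). With hemin the genotypes differed by −0.07 (95% interval −0.20 to 0.06, adjusted p = 0.41).

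*Iscu*, the scaffold, was higher with hemin in both genotypes. Its level was 13.7, 14.8 and 14.8 FPKM in control with vehicle (14.4 ± 0.689) and 28.3, 30.3 and 21.5 FPKM in control with hemin (26.7 ± 4.61). In labelled KO colonoids it was 14.2, 14.5 and 15 FPKM with vehicle (14.5 ± 0.396) and 25.6, 25.3 and 24.9 FPKM with hemin (25.2 ± 0.372). Every hemin library exceeded every vehicle library, and the lowest of the hemin libraries was replicate 3 of control. The rise was 0.83 in control (SE 0.10, limma adjusted p = 6.1e-05, FPKM ratio 1.85) and 0.76 in labelled KO colonoids (SE 0.10, adjusted p = 7.9e-05, FPKM ratio 1.74). After rescaling to TPM the rise passed in control (0.67, adjusted p = 0.012) and not in labelled KO colonoids (0.45, adjusted p = 0.059), where it passed when *Gm23935* was left out before rescaling (0.56, adjusted p = 0.0009). Genotypes differed by 0.01 with vehicle (95% interval −0.22 to 0.24, adjusted p = 0.96) and by −0.06 with hemin (−0.29 to 0.16, adjusted p = 0.67). That second value depended on which library of control with hemin was left out. Without replicate 3 the labelled KO libraries were lower with hemin by −0.21 on the log2 scale (adjusted p = 0.0092), and the interaction of −0.07 (adjusted p = 0.77) became −0.22 (adjusted p = 0.034). Without replicate 2 the genotypes differed by 0.03 with hemin (adjusted p = 0.83), and the interaction was 0.02 (adjusted p = 0.92).

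*Isca1* and *Isca2*, whose proteins work as a pair, both had higher means with hemin. The *Isca1* level was 4.83, 4.91 and 4.40 FPKM in control with vehicle (4.72 ± 0.275) and 6.94, 7.86 and 9.86 FPKM in control with hemin (8.22 ± 1.49). Levels in labelled KO colonoids were 5.17, 5.13 and 4.84 FPKM with vehicle (5.05 ± 0.178) and 7.67, 7.59 and 7.75 FPKM with hemin (7.67 ± 0.0818). All 6 hemin libraries were above all 6 vehicle libraries. *Isca1* rose by 0.68 in control (SE 0.097, limma adjusted p = 0.00018, FPKM ratio 1.74) and by 0.52 in labelled KO colonoids (SE 0.097, adjusted p = 0.00082, FPKM ratio 1.52). Rescaling to TPM ended both calls, at 0.57 (adjusted p = 0.050) and 0.25 (adjusted p = 0.35), and rescaling without *Gm23935* ended neither. The highest library was replicate 3 of control with hemin, which was the lowest hemin library for *Iscu*, and the rise in control without it was 0.56 (adjusted p = 4.6e-05). Genotypes differed by 0.08 with vehicle (95% interval −0.13 to 0.30, adjusted p = 0.57) and by −0.08 with hemin (−0.29 to 0.14, adjusted p = 0.59).

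For *Isca2* the level was 11.3, 9.81 and 9.86 FPKM in control with vehicle (10.3 ± 0.838) and 12.1, 13.2 and 11 FPKM in control with hemin (12.1 ± 1.11). The labelled KO libraries had 9.52, 9.29 and 8.53 FPKM with vehicle (9.11 ± 0.516) and 11, 12.5 and 13.2 FPKM with hemin (12.2 ± 1.10). The treatments did not overlap in labelled KO colonoids and overlapped in control. The rise passed in labelled KO colonoids (0.39, SE 0.088, limma adjusted p = 0.0028), though not after rescaling to TPM (0.08, adjusted p = 0.73). In control it did not pass with all libraries (0.21, 95% interval 0.02 to 0.41, adjusted p = 0.067) and passed without replicate 1 of control with vehicle (0.27, adjusted p = 0.037) or replicate 3 of control with hemin (0.27, adjusted p = 0.020). The interaction for *Isca2* was 0.18 (95% interval −0.10 to 0.45, adjusted p = 0.36) and that for *Isca1* −0.16 (−0.46 to 0.15, adjusted p = 0.46). The ratio of *Isca1* to *Isca2* FPKM was 0.428, 0.501 and 0.446 in control with vehicle, 0.573, 0.595 and 0.897 in control with hemin, 0.543, 0.552 and 0.568 in labelled KO with vehicle, and 0.695, 0.609 and 0.588 in labelled KO with hemin. Within each genotype the hemin ratios were above the vehicle ratios. Whether *Isca1* is below *Isca2* depends on length as well. The length of 10680 bases given for *Isca1* equals that of all its exons in GENCODE vM21, where 4 of its 7 transcripts are retained-intron forms and its coding transcript has 1942 bases. With coding transcript lengths the ratio was 1.13 to 2.37 over the 12 libraries. The fragments were still those of the whole gene, so these values hold only if they came from the coding transcripts.

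*Glrx5*, which receives the newly made cluster, passed in none of the 5 comparisons by limma, and 0 of these had an unadjusted p under 0.05. Its level was 19.3, 24.1 and 25.8 FPKM in control with vehicle (23.1 ± 3.37) and 21.5, 27.4 and 18.3 FPKM in control with hemin (22.4 ± 4.6). Labelled KO colonoids had 24.6, 26.0 and 26.0 FPKM with vehicle (25.5 ± 0.790) and 21.2, 18.6 and 23.8 FPKM with hemin (21.2 ± 2.57). The control groups overlapped widely, while in labelled KO colonoids each hemin library was below each vehicle library. That last difference was −0.26 (95% interval −0.58 to 0.06, limma adjusted p = 0.14), and it passed when only those groups were fitted (adjusted p = 0.030) and after rescaling to TPM without *Gm23935* (−0.495, adjusted p = 0.017). That rescaling also moved the median of all tested genes to −0.21 in this comparison. The other intervals ran from −0.37 to 0.27 for hemin in control, from −0.17 to 0.47 for genotype with vehicle and from −0.38 to 0.26 for genotype with hemin. For the interaction (−0.215) the interval ran from −0.667 to 0.238.

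**Figure D2:**
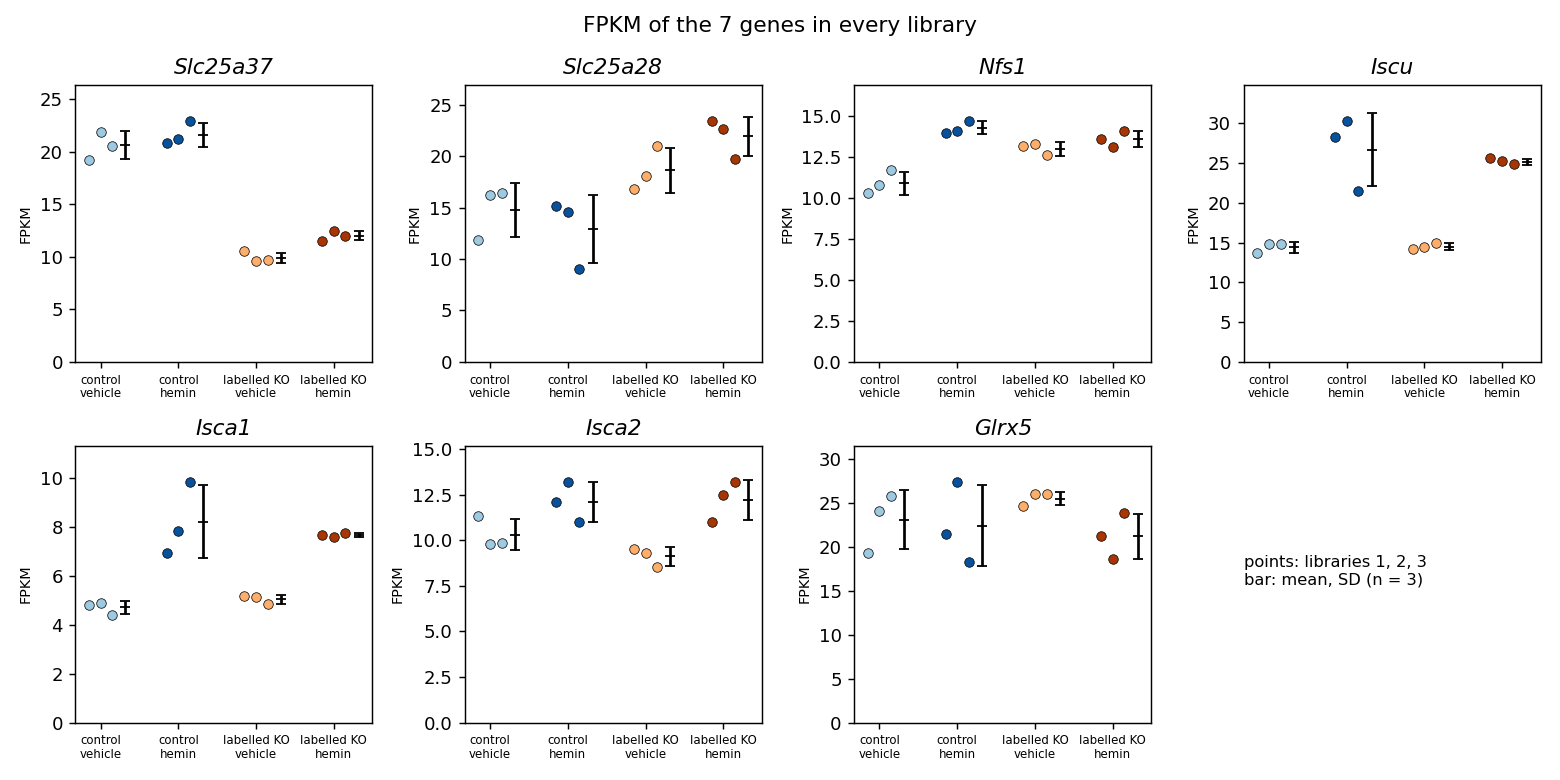
FPKM of the 7 genes (vertical axes, each starting at 0) in the 3 libraries of each of the 4 groups, with the mean and SD beside the points. *Slc25a37* separates the genotypes, *Iscu* and *Isca1* separate hemin from vehicle, and *Nfs1* is lowest in control with vehicle.

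*Iscu* and *Isca1* passed with hemin in both genotypes, and *Slc25a37* passed between genotypes under both treatments. In control, 3 of 7 genes passed with hemin, *Iscu*, *Isca1* and *Nfs1*, all higher, where 49.9% of tested genes passed, 23.2% as higher and 26.7% as lower. Among labelled KO libraries 4 of 7 passed, *Iscu*, *Isca1*, *Isca2* and *Slc25a37*, again all higher, where 60.4% of tested genes passed, 29.9% as higher and 30.4% as lower. The median change with hemin over the 7 genes was 0.21 in control and 0.25 in labelled KO colonoids, beside −0.01 and 0.00 over all tested genes. Between genotypes 2 of 7 passed with vehicle (*Slc25a37* lower, *Nfs1* higher) against 34.2% of all genes, and 2 of 7 with hemin (*Slc25a37* lower, *Slc25a28* higher) against 34.4%. The interaction passed for 1 of 7, *Nfs1*, against 23.8%. The members that passed between genotypes were thus about as frequent as among all genes. After rescaling to TPM, which moves the median of all genes to −0.19 and −0.31 with hemin, 1 of 7 passed for hemin in control (*Iscu*) and 0 in labelled KO colonoids, where *Glrx5* was at −0.61 (limma adjusted p = 0.051). Groups did not overlap for 3 of 7 genes with hemin in control (52.4% of all genes), 5 of 7 with hemin in labelled KO (74.4%), 4 of 7 by genotype with vehicle (57.5%) and 2 of 7 by genotype with hemin (40.9%).

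Changes were of moderate size. The largest fitted difference was that of *Slc25a37* with vehicle, at −0.98. An absolute log2 fold change above 1 together with an adjusted p under 0.05 was met by 8.11% of genes for hemin in control, 12.9% for hemin in labelled KO, 6.8% and 6.01% for genotype with vehicle and with hemin, and 5.13% for the interaction, and by none of the 7 genes in this limma fit. *Slc25a37* with vehicle did meet it with limma-voom on fragments (−1.06), with a pseudocount of 0.1 (−1.04), and without replicate 1 of either vehicle group (−1.03 without that of control and −1.02 without that of labelled KO).

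**Figure D3:**
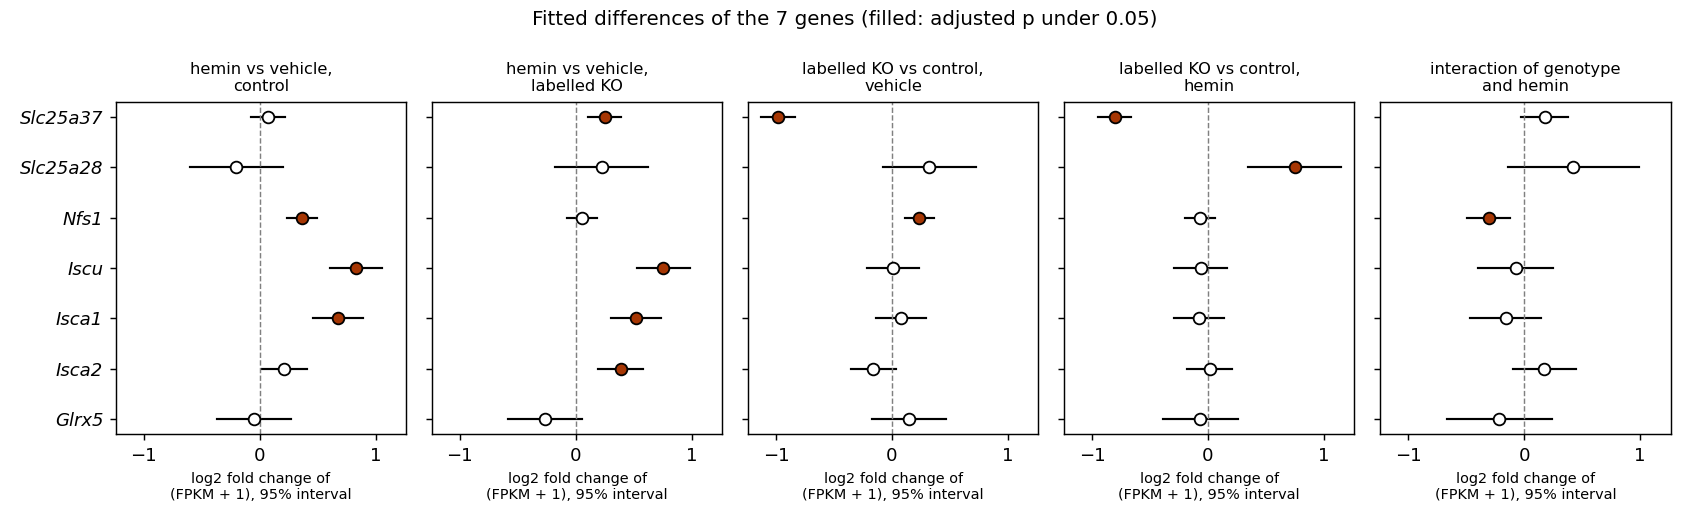
Fitted log2 fold changes of (FPKM + 1) with 95% intervals for the 7 genes (rows) in the 5 comparisons (panels), filled where the limma adjusted p was under 0.05. *Iscu* and *Isca1* lie to the right of 0 in both hemin panels, and *Slc25a37* lies at −0.98 and −0.81 in the genotype panels.

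The promoter windows of *Isca1* and *Isca2*, whose proteins work as a pair, are shown as a description. Their hemin changes were not tested against each other. Windows in RefSeq (GRCm38.p6, 250 bases before to 50 after the start) were found for 5 of the 7 genes, not *Slc25a37* or *Iscu*. The letters TGACNNNGC, the core of the antioxidant response element, were searched on both strands and occurred in 12.4% of 32851 windows. Among the 5 they occurred in *Isca1* and *Nfs1*, with 2 matches each. Only the stretch of each window before the annotated gene and outside untranslated parts of any annotated transcript is printed, which is 229 bases for *Isca1* (chr13:59769811-59770039, minus strand), with the matches in capitals, and 98 bases for *Isca2* (chr12:84773153-84773250, plus strand). The stretches thus differ in span, and the rest of the *Isca2* window had no match either.
Isca1: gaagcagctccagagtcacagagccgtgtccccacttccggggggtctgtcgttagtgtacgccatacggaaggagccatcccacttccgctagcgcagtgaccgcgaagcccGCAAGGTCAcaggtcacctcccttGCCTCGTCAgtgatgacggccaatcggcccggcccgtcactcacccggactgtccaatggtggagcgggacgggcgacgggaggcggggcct
Isca2: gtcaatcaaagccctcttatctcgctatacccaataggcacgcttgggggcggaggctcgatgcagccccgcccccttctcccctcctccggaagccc
A match describes the letters only, and binding was not measured. The 5 letters CCAAT, searched on both strands as well, occurred in the windows of *Slc25a28*, *Glrx5*, *Isca1* and *Isca2* and in 37.4% of all windows. Of the pair of *Isca2* matches, the one that begins 156 bases before the start lies outside the printed stretch.

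Related genes were counted by list, against shares among all tested genes of 23.2% higher and 26.7% lower with hemin in control, 29.9% higher and 30.4% lower with hemin in labelled KO colonoids, 34.2% and 34.4% passing between genotypes with vehicle and with hemin, and 23.8% for the interaction. The partners of ISCU and NFS1 in early assembly come first. Of 6 genes listed, 5 were tested (*Fdx1l* was too low). With hemin 0 passed as higher and 2 as lower in control, and 1 as higher and 2 as lower in labelled KO colonoids, with list medians of −0.34 and −0.27. *Ndufab1*, the mitochondrial acyl carrier protein that is part of the assembly complex, rose in labelled KO colonoids (0.22, adjusted p = 0.0071; −0.10 after rescaling to TPM, adjusted p = 0.66) and changed by 0.05 in control (adjusted p = 0.47). *Fdx1*, a ferredoxin, fell in control (−0.17, adjusted p = 0.035). *Lyrm4*, which encodes the NFS1 partner ISD11, did not pass (−0.34 and −0.27, adjusted p = 0.097 and 0.16). By limma none of the 5 passed between genotypes or for the interaction (unadjusted p under 0.05 for 0 with vehicle, 2 with hemin and 0 for the interaction).

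Genes for cluster transfer come next, and the shares of all genes that passed as lower were 26.7% in control and 30.4% in labelled KO colonoids. Of 8 tested, 3 passed in control and 5 in labelled KO colonoids, each of them lower, with medians of −0.15 and −0.28. *Hspa9*, the mitochondrial chaperone that releases clusters from ISCU, fell from 137 ± 2.16 to 70.3 ± 1.43 FPKM in control (−0.95, limma adjusted p = 7.2e-08) and from 139 ± 0.614 to 80.9 ± 1.77 FPKM in labelled KO colonoids (−0.78, adjusted p = 1.5e-07). *Hscb*, its co-chaperone, and *Bola1*, a partner of GLRX5, fell in labelled KO colonoids (−0.29, adjusted p = 0.020, and −0.56, adjusted p = 0.0011) and did not pass in control (0.09 and −0.14). *Nfu1*, a late-acting cluster carrier, did not pass (−0.15 in each genotype, adjusted p = 0.56 and 0.53). Between genotypes 1 of 8 passed with vehicle, *Nubpl*, and 1 with hemin, *Hspa9*, which was higher in labelled KO colonoids by 0.20 (adjusted p = 0.0061).

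The export and partner genes moved both ways. Of 6, 2 rose and 2 fell with hemin in control, and 2 rose and 1 fell in labelled KO colonoids. *Fech*, ferrochelatase, which inserts iron into heme and itself holds a cluster, rose from 18.4 ± 0.474 to 28 ± 0.191 FPKM in control (0.58, limma adjusted p = 3.7e-06) and from 19.0 ± 0.801 to 30.4 ± 0.306 FPKM in labelled KO colonoids (0.66, adjusted p = 8e-07). *Abcb8*, a mitochondrial ABC transporter, fell by −0.75 (adjusted p = 0.00029) and −0.86 (adjusted p = 7.6e-05). *Abcb10*, an inner membrane transporter reported to bind mitoferrin-1, went from 9.80 ± 0.374 to 7.28 ± 0.365 FPKM in control (−0.38, adjusted p = 0.00068) and from 7.91 ± 0.703 to 8.40 ± 0.229 FPKM in labelled KO colonoids (0.08, adjusted p = 0.32), and its interaction passed (0.46, adjusted p = 0.0047). With vehicle *Abcb10*, like *Slc25a37*, was lower in labelled KO colonoids (−0.28, adjusted p = 0.0073). With hemin *Slc25a37* was lower and *Abcb10* was not (0.185, adjusted p = 0.054) in labelled KO colonoids. *Gfer*, a sulfhydryl oxidase of the intermembrane space, was higher in them with hemin (0.56, adjusted p = 0.024).

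**Figure D4:**
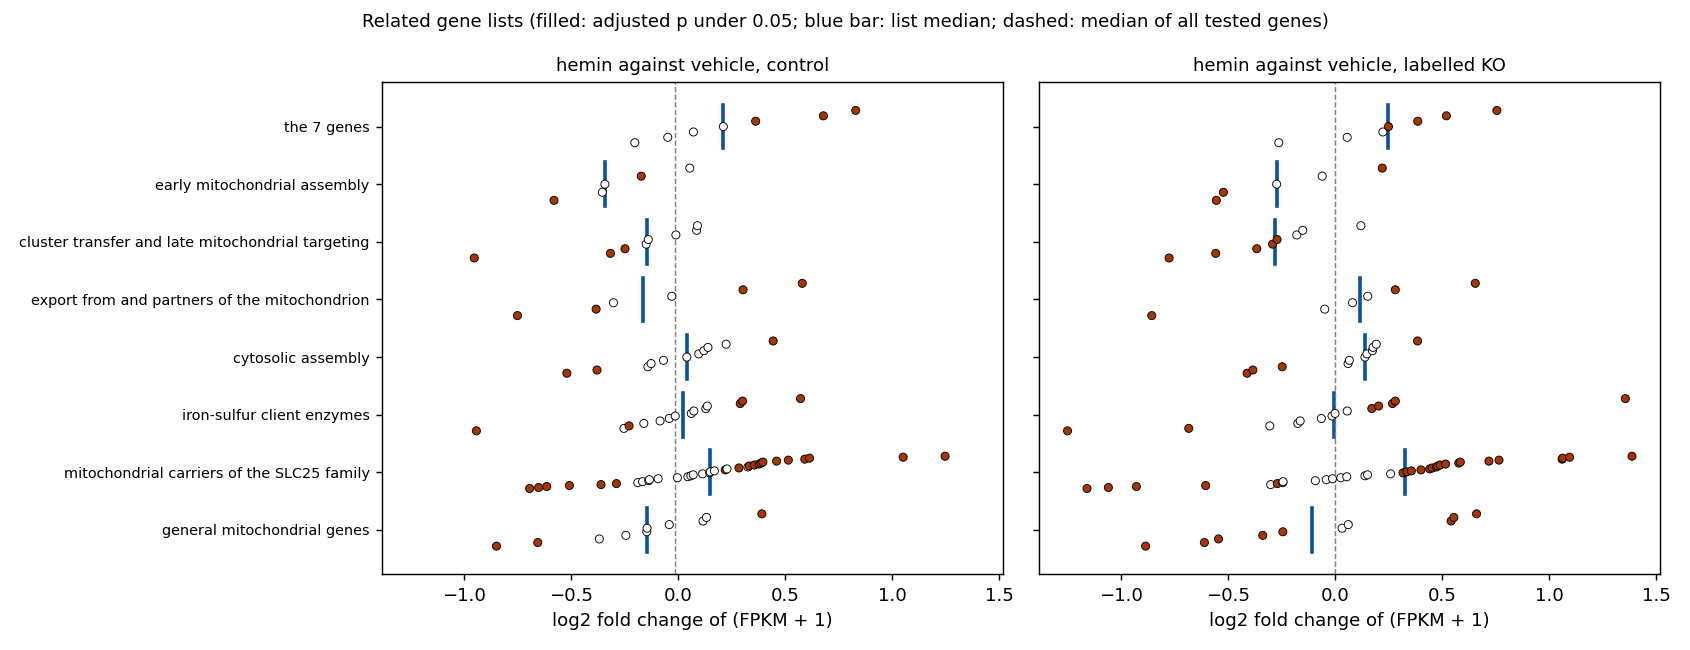
Log2 fold changes of (FPKM + 1) with hemin in control (left) and labelled KO colonoids (right) for the 7 genes and for each of 7 related lists (rows), 1 point per tested gene, filled where the limma adjusted p was under 0.05. Blue bars are list medians, 0.21 and 0.25 for the 7 genes, and the dashed line is the median of all tested genes.

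In the cytosolic assembly machinery, 1 gene rose and 2 fell of 11 with hemin in control, and 1 rose and 3 fell in labelled KO colonoids. *Glrx3*, a cytosolic glutaredoxin, fell in both (−0.52, limma adjusted p = 0.00011, and −0.39, adjusted p = 0.00064). *Nubp2*, a cytosolic scaffold, rose in labelled KO colonoids (0.39, adjusted p = 0.0025), where *Mms19*, which hands clusters to DNA repair enzymes, fell (−0.25, adjusted p = 0.016). With hemin, *Glrx3* (0.34), *Nubp2* (0.34) and *Bola2*, a partner of GLRX3 (0.23, adjusted p = 0.044), were higher and *Mms19* lower (−0.23, adjusted p = 0.042) in labelled KO than in control colonoids. None of the 11 passed for the interaction by limma, where 2 had an unadjusted p under 0.05.

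Enzymes that use the clusters showed no common direction. Of 14 tested, 3 rose and 2 fell with hemin in control, and 5 rose and 2 fell in labelled KO colonoids, with medians of 0.02 and −0.01. *Ppat*, the first enzyme of purine synthesis, fell from 9.43 ± 0.975 to 4.44 ± 0.703 FPKM in control (−0.94, limma adjusted p = 3.9e-05) and from 16.7 ± 0.649 to 6.44 ± 0.794 FPKM in labelled KO colonoids (−1.25, adjusted p = 2.8e-06). *Xdh*, xanthine dehydrogenase, rose from 4.44 ± 0.373 to 7.09 ± 0.718 FPKM in control and from 4.50 ± 0.109 to 13.1 ± 0.742 FPKM in labelled KO colonoids, by 0.57 and 1.36 (interaction 0.79, adjusted p = 0.00046). The complex I subunit gene *Ndufs8* fell by −0.23 (adjusted p = 0.014) and −0.69 (adjusted p = 5.7e-06), also with a passing interaction (−0.46, adjusted p = 0.0049). *Ndufs7*, another complex I subunit, rose in control (0.29, adjusted p = 0.0049) and changed by −0.02 in labelled KO colonoids (adjusted p = 0.86, interaction adjusted p = 0.044). Between genotypes 1 was higher and 3 lower with vehicle, and 2 were higher and 2 lower with hemin.

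Among the other carriers of the SLC25 family, 34 of 45 were tested. With hemin 13 rose and 6 fell in control, and 18 rose and 5 fell in labelled KO colonoids, with medians of 0.15 and 0.33, where 23.2% and 29.9% of all genes passed as higher. Between genotypes 6 were higher and 6 lower with vehicle, and 5 were higher and 4 lower with hemin. *Slc25a12*, an aspartate-glutamate carrier, was higher in labelled KO colonoids, at 7.38 ± 0.103 against 2.12 ± 0.0997 FPKM with vehicle (1.42, limma adjusted p = 1.5e-08) and 10.1 ± 0.494 against 1.43 ± 0.088 FPKM with hemin (2.19, adjusted p = 4.8e-10). *Slc25a20*, the carnitine-acylcarnitine carrier, was lower in them with vehicle (−0.98, adjusted p = 5.9e-06) and not with hemin (−0.21, adjusted p = 0.091), a difference that passed (0.77, adjusted p = 0.0010). *Slc25a4*, an ADP/ATP carrier, rose by 1.25 with hemin in control (adjusted p = 1.8e-06) and by 0.72 in labelled KO colonoids (adjusted p = 6.7e-05). *Slc25a44*, a branched-chain amino acid carrier, rose by 1.05 (adjusted p = 6.5e-07) and 1.06 (adjusted p = 3e-07). *Slc25a22*, a glutamate carrier, changed by 0.15 in control (adjusted p = 0.33) and rose by 1.06 in labelled KO colonoids. *Slc25a33*, a pyrimidine nucleotide carrier, rose in both (0.52, adjusted p = 0.0028, and 1.10), and *Slc25a34* fell in both (−0.65, adjusted p = 0.0013, and −1.16). *Slc25a35* changed by −0.17 in control (adjusted p = 0.14) and fell by −1.06 in labelled KO colonoids.

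General mitochondrial genes passed in both directions with hemin. Of 10 tested, 1 rose and 2 fell with hemin in control, and 3 rose and 5 fell in labelled KO colonoids, with medians of −0.15 and −0.11. *Hspd1*, a matrix chaperonin, fell from 170 ± 8.38 to 93.7 ± 5.23 FPKM in control (−0.85, limma adjusted p = 1.7e-06) and from 191 ± 3.68 to 103 ± 5.84 FPKM in labelled KO colonoids (−0.89, adjusted p = 6.8e-07). *Cs*, citrate synthase, changed by −0.04 in control (adjusted p = 0.49) and rose by 0.54 in labelled KO colonoids (adjusted p = 3e-06). *Cycs*, cytochrome c, rose by 0.39 (adjusted p = 0.00021) and 0.66 (adjusted p = 2.5e-06). *Timm23*, a subunit of the inner membrane protein import channel, was higher in labelled KO than in control colonoids with hemin (0.69, adjusted p = 0.012).

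The genes closest in pattern to each member were sought over the 12 libraries by the root mean square difference of log2(FPKM + 1) around each gene's own mean. For *Slc25a37* they were *Slc25a48*, another SLC25 carrier (0.11), *Thsd7a* (0.12) and *Arid5a* (0.12). *Slc25a48* was at 26.1 ± 2.90 and 30.8 ± 2.86 FPKM in control with vehicle and hemin and at 13.9 ± 0.724 and 15.4 ± 0.726 FPKM in labelled KO colonoids. For *Slc25a28* they were *Vipr1* (0.13), *Tnk2* (0.14) and *Sema4g* (0.14), with *Vipr1* at 29.8 ± 3.49, 25.2 ± 6, 36.8 ± 0.891 and 49.2 ± 0.762 FPKM in the same order of groups. Those of *Nfs1* were *Tvp23b* (0.06) and *Prkrip1* (0.07), and those of *Iscu* were *Fibp*, *Agpat3* and *Yipf1* (0.08 to 0.10). *Isca1* was closest to *Impa1*, *Pigk* and *Tmem87b* (0.07 to 0.08), *Isca2* to *Atp5f1*, *Psmd8* and *Samd10* (0.08), and *Glrx5* to *Pex5*, *Sh3bp5l* and *Fbxw9* (0.07 to 0.08). No member was among the 3 nearest genes of another member.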

How the data were processed

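RNA-seq libraries were prepared, sequenced and processed by Novogene for the authors. The submitters' processing notes name fastp, HISAT2 2.0.5, featureCounts 1.5.0-p3 and build mm10, and no parameters. The authors deposited FPKM for 54532 genes in 12 libraries, 1 column per library. Their median-of-ratios factors were equal in every library, so a scaling between libraries was already part of the deposited FPKM. FPKM times gene length gave whole multiples of 1 fragment for 100% of values (within 0.01), from which fragments were recovered.

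Genes with FPKM of at least 1 in at least 3 libraries (12740) were tested with limma 3.58.1 in R 4.3.3 on log2(FPKM + 1), with 1 mean per group, an intensity trend, no block and Benjamini-Hochberg adjustment. A pseudocount of 1 understates changes of low genes. Groups and replicate numbers came from the sample titles and the hemin dose from the series' design text. The labels give the genotype of replicate 3 of labelled KO with hemin as floxed with *Vil1*-Cre, and that of the other labelled KO libraries as KO with *Vil1*-Cre. The 7 genes and the gene lists were chosen with earlier results of these data known. Of each list, genes past both an adjusted p of 0.05 and an absolute log2 fold change of 1 in any comparison were named, filled up to 4 by the smallest adjusted p between the hemin-treated genotypes, and the 3 genes nearest in pattern to each member. A few genes that these rules name are not reported here. Other genes named by symbol alone are markers, genes with shared windows or the few members of a count. Coding and promoter sequences were compared with Biopython 1.88 in Python 3.11.15, and figures were drawn with matplotlib 3.10.9. Scripts were tested on simulated data. Alternatives covered the pseudocount, the filter on low values, scaling, a replicate block, the moderation, the groups fitted, limma-voom on fragments, and each library left out, and, chosen after seeing the data, scaling without *Gm23935* and exon or coding transcript lengths from GENCODE vM21 for ratios between genes.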

Additional observations from a re-analysis of the deposited data

Results flagged for a closer look

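The hemin response of *Nfs1* differed between genotypes by a test of the difference itself (interaction −0.31, SE 0.083, limma adjusted p = 0.021). It was 0.36 in control and 0.06 in labelled KO colonoids, and the interaction passed for 23.8% of all genes tested. Under 21 alternatives it ranged from −0.47 to −0.27 and passed in 17.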

How the results depend on the processing

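Counts of members that passed were 3, 4, 2, 2 and 1 for hemin in control, hemin in labelled KO, genotype with vehicle, genotype with hemin and the interaction. Requiring in addition an absolute log2 fold change above 1 left 0 in each. Rescaling to TPM gave 1, 0, 1, 2 and 0, with the median of all genes moved to −0.19, −0.31, 0.16, 0.05 and −0.11. Leaving out *Gm23935* before that rescaling, an alternative chosen after seeing the data, gave 3, 3, 2, 2 and 1, where the 3 for hemin in labelled KO were *Iscu*, *Isca1* and *Glrx5* (lower), and *Slc25a37* (0.04, adjusted p = 0.64) and *Isca2* (0.19, adjusted p = 0.10) no longer passed. The median of all genes was still moved, to −0.118, −0.207, 0.083, −0.005 and −0.085 in the same order. Leaving out each library in turn gave 0 to 2 for the interaction, with 0 without replicate 2 of control with vehicle or replicate 1 or 2 of labelled KO with vehicle, and 2 without replicate 3 of control with hemin. Same-numbered libraries did not deviate together (mean correlation −0.04, from −0.33 to 0.18, over 18 pairs), and a replicate block gave 3, 4, 2, 2 and 1 and changed no call of a member, while 6 calls of listed genes were lost.

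Signs turned only for values that did not pass under the alternative. With TPM, hemin gave −0.12 for *Slc25a37* in control (−0.033 without *Gm23935*), and in labelled KO −0.067 for *Slc25a37*, −0.10 for *Slc25a28*, −0.27 for *Nfs1* (−0.16 without *Gm23935*) and −0.10 for *Ndufab1*. *Isca2* between genotypes with hemin became −0.038 with TPM without *Gm23935* and −0.005 with limma-voom. With single libraries left out, values ran from −0.349 to 0.015 for *Slc25a28* and −0.197 to 0.081 for *Glrx5* with hemin in control, from −0.028 to 0.029 for *Iscu* between genotypes with vehicle, and, between genotypes with hemin, from −0.207 to 0.031 for *Iscu*, −0.195 to 0.083 for *Glrx5*, −0.178 to 0.047 for *Isca1* and −0.048 to 0.081 for *Isca2*. The *Iscu* interaction ran from −0.217 to 0.021. Over all alternatives 724 of 763 member values kept direction and side of the threshold, 13 no longer passed (1 of them with changed sign), 6 newly passed and 20 that had not passed changed sign. Of 1699 values of listed genes that the rule names, 137 no longer passed, 39 of them with TPM. The cause was not tested.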
